A study of Homo sapiens with 15 samples.

Results

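The 10 genes described here make and modify fatty acids: ACLY and ACSS2 supply acetyl-CoA, ACACA carboxylates it, FASN and OLAH build and release the chain, ELOVL5 and ELOVL6 lengthen it, and SCD, FADS1 and FADS2 introduce double bonds. They were chosen by symbol, with earlier results of these data known, and all 10 were found among the 60670 genes of the count table. RNA-seq had been run on HT-1080, an established human fibrosarcoma cell line, in 15 libraries that form 5 groups of 3. Cycling cells received the vehicle DMSO and are labelled 6 h. The other 4 groups were senescent cells, in which a dominant negative mutant of the telomere-binding protein TRF2 had been expressed for 6 days to uncap telomeres. They received DMSO for 6 h, GNF-7 at 1 µM for 6 h, DMSO for 24 h, or GNF-7 at 1 µM for 24 h. GNF-7 is a tyrosine kinase inhibitor that the study's title describes as an allosteric activator of the stress kinase GCN2. No group of cycling cells received GNF-7, and cycling cells at 24 h were not analysed here. The effect of senescence was therefore read at 6 h in vehicle, and the effect of GNF-7 was read only within senescent cells. All libraries come from 1 cell line, and the labels call the 3 libraries of a group biological replicates without saying how the cultures were separated, so p-values measure the spread between these libraries.

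In the cytosol, citrate exported from mitochondria is split by ACLY into acetyl-CoA and oxaloacetate, while ACSS2 makes acetyl-CoA from acetate. ACACA converts acetyl-CoA to malonyl-CoA, the committed step, and FASN joins these units into palmitate using NADPH. In most cells the thioesterase domain of FASN itself ends synthesis. OLAH is a separate thioesterase, best known from the lactating mammary gland, that releases shorter chains from FASN. Palmitate is then elongated by ELOVL6 and desaturated by SCD, whereas ELOVL5, FADS1 and FADS2 act on polyunsaturated chains. Many of these genes are textbook targets of the transcription factors SREBF1 and SREBF2, which are held in the endoplasmic reticulum by SCAP and INSIG proteins when sterols are plentiful.

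The promoters of 3 members that fell together in senescence and after 24 h of GNF-7 (SCD, ACLY and ACACA) and of ACSS2, which fell in senescence and rose after 24 h of GNF-7, are shown first, because SREBF-driven promoters are known to combine a sterol response element with NF-Y and SP1 sites. RefSeq promoter windows on GRCh38.p14 (250 bases before to 50 after a start) were matched for 8 of the 10 genes, in 13 windows, and FASN and OLAH had none in the table used. The 4 stretches below lie outside the exons of GENCODE 29 and read 5′ to 3′ on the gene's strand, with capitals marking CCAAT, the NF-Y motif, or its reverse complement ATTGG.
SCD, chr10:100346983-100347123, plus strand: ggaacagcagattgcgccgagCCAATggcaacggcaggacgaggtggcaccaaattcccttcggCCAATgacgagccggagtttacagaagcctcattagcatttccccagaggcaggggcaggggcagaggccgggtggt
ACLY, chr17:41919023-41919272, minus strand: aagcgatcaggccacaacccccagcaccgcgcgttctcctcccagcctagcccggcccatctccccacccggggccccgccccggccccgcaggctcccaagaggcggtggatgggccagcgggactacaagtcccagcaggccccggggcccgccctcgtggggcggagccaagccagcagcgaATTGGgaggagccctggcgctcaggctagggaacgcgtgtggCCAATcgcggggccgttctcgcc
ACACA, chr17:37359122-37359346, minus strand: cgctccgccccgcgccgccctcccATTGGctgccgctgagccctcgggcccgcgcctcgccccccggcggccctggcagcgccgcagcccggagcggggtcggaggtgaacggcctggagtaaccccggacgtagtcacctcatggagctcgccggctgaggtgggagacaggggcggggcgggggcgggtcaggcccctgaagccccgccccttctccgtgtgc
ACSS2, chr20:34874739-34874941, plus strand: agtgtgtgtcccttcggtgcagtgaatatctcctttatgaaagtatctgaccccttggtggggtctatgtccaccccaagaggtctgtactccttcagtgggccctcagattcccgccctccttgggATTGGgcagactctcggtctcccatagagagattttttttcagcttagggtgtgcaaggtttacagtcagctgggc

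CCAAT, searched on both strands, lay in 8 of the 13 windows, against 34.6% of all 35116 promoter windows. These belong to 6 of the 8 genes, and no share over all genes was computed. Every stretch shown above holds CCAAT on 1 strand or the other, and no window without it is shown. The SCD stretch holds 2 copies, and the ACLY stretch holds 2. GGGCGG, an SP1 motif, lay in 10 windows, against 45% of all windows, and these belong to 7 genes. CACGTG, the E-box, was found in 1 window, that of ELOVL5, against 7.26%. TCACNCCAC, the core of a sterol response element, was in 0 of the 13 windows against 1.13% of all, and TGATGCAAT and TGATGNAA, forms of the ATF4 composite element, were in 0 against 0.236% and 3.62%. At shares this low, 0 of 13 is likely for any windows, so it does not show that the genes lack these elements. ACSS2, which rose after 24 h of GNF-7 while SCD, ACLY and ACACA fell, holds CCAAT in the stretch shown, as they do. It was absent from the other ACSS2 window and from another ACACA window. ELOVL6 and FADS1, which also fell after 24 h of GNF-7, had no CCAAT, and FADS2 had it only after the start. Some windows of 1 gene overlap, as those of ACLY do, so the same copy can count in 2 windows, and a match describes letters only.

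The libraries held 25991007 to 32323393 counts. Values are CPM, read counts relative to library size with edgeR's TMM factors, and a gene was called changed at an edgeR quasi-likelihood adjusted p under 0.05 over all 18563 genes tested. All 10 members were among the genes tested, of which OLAH lay below the filter's 0.335 CPM in the 3 cycling libraries and above it in the other 12. Of the 9 mesenchymal markers of HT-1080, 8 were among the genes tested, S100A4 was low (group means of 0.431 to 2.75 CPM) and THY1 was at 0 in all groups. Their summed level was 9858 to 10095 CPM in cycling cells, and in senescent cells 9998 to 10842 with vehicle and 8657 to 9318 with GNF-7 at 6 h, and 10476 to 11615 with vehicle and 6810 to 7130 with GNF-7 at 24 h. All 8 tested were called lower after 24 h of GNF-7 (median log2 fold change -0.61, SPARC -2.38), the comparison in which 8 members fell, and their part in that result was not tested. Markers of mammary cells, where OLAH is best known, summed to 0 CPM in cycling cells and after 24 h of GNF-7 and to at most 0.292 CPM in any library. Those of adipocytes summed to at most 0.812 CPM, of hepatocytes to 9.96 and of blood to 0.754. The hepatocyte sum was mostly SERPINA1, at 9.09 ± 0.763 CPM in cycling cells (SD, n = 3), while ALB, APOA1 and APOB had group means of at most 0.161 CPM. The 6 epithelial markers summed to 1.02 to 1.12 CPM in vehicle and 3.88 to 5.48 CPM with GNF-7 at 24 h, and both that were tested were called higher there, ESRP1 going from 0.159 ± 0.0835 to 2.65 ± 0.396 CPM (SD, n = 3). GRHL2 was at 0 in every library, CDH1 and EPCAM had group means of at most 0.0645 and 0.0852 CPM, and the part of these markers in the results was not tested. Transcripts of mitochondrial DNA took 3.75% to 5.01% of counts in cycling cells, 11.2% to 12.4% and 15.1% to 18.7% in vehicle-treated senescent cells at 6 h and 24 h, and 13.2% to 15.3% and 22.6% to 24.1% with GNF-7. Leaving these genes out of the fit ended 1 member call, that of ELOVL6 between the vehicle times. In bulk RNA, a change in every cell and a change in the share of cells that express a gene cannot be told apart. Coordinates of the genes are those of GENCODE 29 on GRCh38.

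In vehicle at 6 h, senescent cells had less RNA of 9 of the 10 genes than cycling cells, and more only of OLAH. All 10 passed the test (9 lower, 1 higher) where 34.4% of all genes were called lower and 35.6% higher. The 10 genes together took 0.267% ± 0.00575 (SD, n = 3) of all counts in cycling cells and 0.135% ± 0.00342 in senescent cells. Their median log2 fold change was -1.09, against 0.062 over all genes tested. Falls of at least 2-fold numbered 6 (SCD, FADS2, ELOVL5, ELOVL6, FADS1 and FASN), against 7.56% of all genes. The fall of FASN, -1.02 on the log2 scale, was -0.87 with a filter at a mean of 5 CPM. The smallest falls were those of ACSS2 and ACLY, the genes of acetyl-CoA supply. For each of the 10 the 3 senescent and 3 cycling libraries did not overlap, as was so for 35.4% of all genes on the lower side and 36.1% on the higher side.

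After 6 h of GNF-7 in senescent cells the changes were small, apart from OLAH and ELOVL6. Of the 10 genes, 5 fell (ELOVL6, ACLY, FASN, ELOVL5 and FADS2), 2 rose (OLAH and SCD) and 3 did not pass the test (ACACA, ACSS2 and FADS1), where 21.4% of all genes were called lower and 17.9% higher. The median log2 fold change was -0.14 against 0.0073 over all genes. After 24 h, 8 of the 10 fell and 2, OLAH and ACSS2, rose, and no group overlapped its vehicle group. Of all genes, 29.7% were called lower and 29.3% higher in that comparison, and 30.9% and 32.2% did not overlap. The median was -0.78 against 0.038 over all genes, and the 10 genes took 0.0781% ± 0.000564 of all counts, against 0.131% ± 0.00386 in vehicle at 24 h. ELOVL6, FADS1 and FADS2 fell at least 2-fold, as 3.92% of all genes did.

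**Figure D1:**
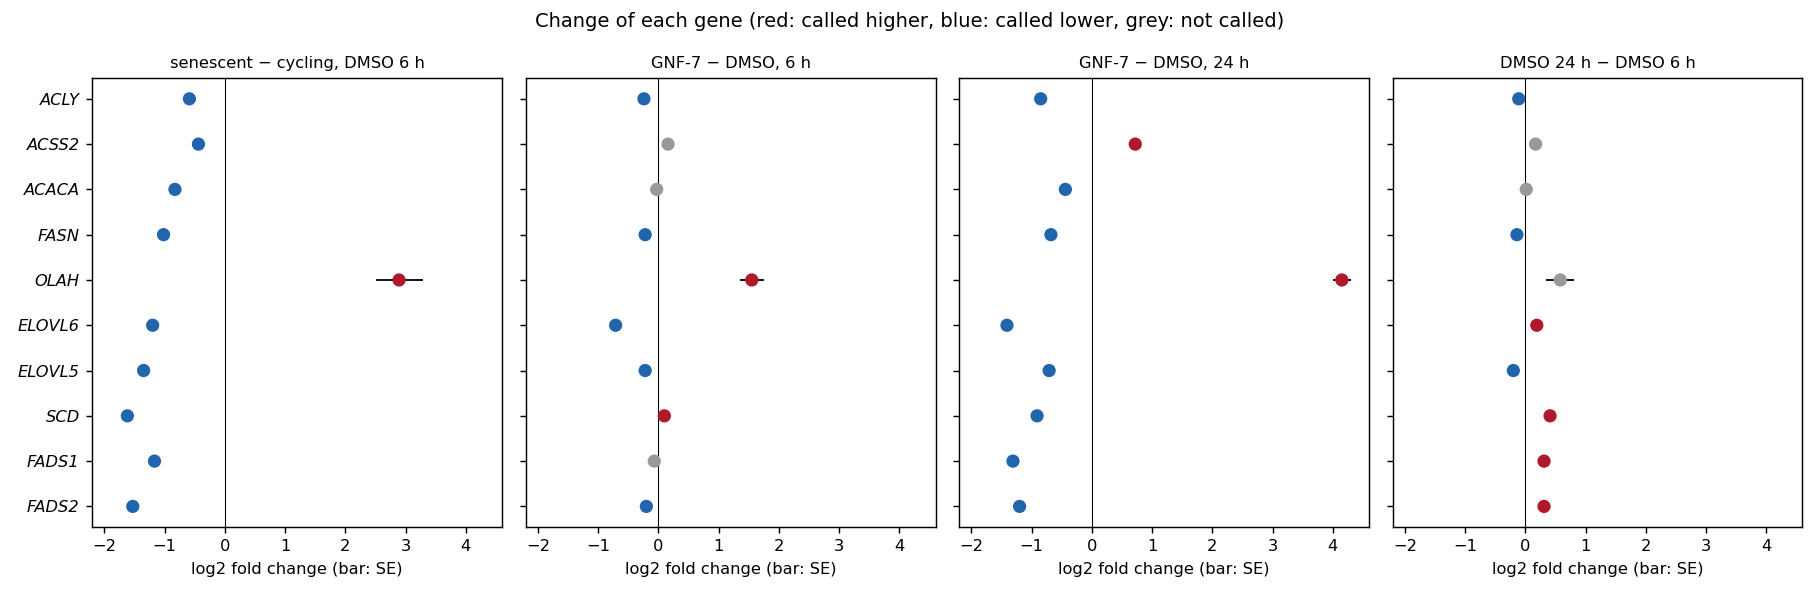
Log2 fold change (horizontal axis, bars are standard errors derived from the edgeR F statistic) of each of the 10 genes in 4 comparisons, each against 3 libraries. OLAH is the only member to the right of 0 in senescence, and OLAH (4.15) and ACSS2 (0.72) are to the right of 0 after 24 h of GNF-7 while the other 8 genes lie between -1.41 and -0.44.

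ACLY (ENSG00000131473, chromosome 17, 41866908 to 41930542, minus strand), the citrate lyase, stood at 491, 493 and 514 CPM in cycling cells and at 342, 323 and 329 CPM in the senescent 6 h vehicle group. The 6 h GNF-7 libraries had 294, 269 and 281 CPM. At 24 h the vehicle libraries had 307, 300 and 316 CPM and the GNF-7 libraries 172, 173 and 167 CPM. Each GNF-7 group thus lay below its own vehicle group without overlap. The log2 fold change of ACLY was -0.59 (SE 0.036) in senescence, -0.24 (SE 0.036) after 6 h of GNF-7 and -0.85 (SE 0.037, edgeR adjusted p 2.01e-29) after 24 h. ACLY shares 156 exon bases (2.99%) with an antisense RNA gene, AC125257.2, that had 24 counts over all libraries.

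ACSS2 (ENSG00000131069, chromosome 20, 34872146 to 34927962, plus strand), the acetate-dependent source of acetyl-CoA, went the other way after 24 h of GNF-7. It had 25.2, 27.6 and 24.2 CPM in cycling cells and 19.9, 19.2 and 17.6 CPM in the senescent 6 h vehicle group. With GNF-7 for 6 h it had 19.9, 21.6 and 22.1 CPM, which touches the vehicle range. At 24 h the vehicle libraries had 21.8, 22.4 and 19.5 CPM and the GNF-7 libraries 35.4, 36.1 and 33.8 CPM, above every other library. The log2 fold change was -0.44 (SE 0.074, edgeR adjusted p 3.31e-07) in senescence and 0.72 (SE 0.071, edgeR adjusted p 1.00e-13) after 24 h of GNF-7. After 6 h it was 0.16 (95% interval 0.018 to 0.31, edgeR adjusted p 0.0748) and did not pass, but it passed with a filter at a mean of 5 CPM (0.22, adjusted p 0.013) and without GNF-7 6 h replicate 1 (0.21, adjusted p 0.041). Per kilobase of the principal transcript, ACSS2 stood at 7.29% ± 0.631 (SD, n = 3) of the ACLY level in cycling cells and 8.08% ± 0.469 in the senescent 6 h vehicle group. It stood at 9.78% ± 0.932 in vehicle at 24 h and 29.1% ± 0.485 after 24 h of GNF-7. In that last group ACSS2 was at 11.5 and ACLY at 39.3 CPM per kilobase. With the length of all merged exons they were at 6.52 and 32.7, so the percentages depend on the length used.

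ACACA (ENSG00000278540, chromosome 17, 37084988 to 37406818, minus strand), the cytosolic acetyl-CoA carboxylase, had 133, 145 and 144 CPM in cycling cells and 81, 78.1 and 77.9 CPM in the senescent 6 h vehicle group. The 6 h GNF-7 libraries (76.8, 79.8 and 75.6 CPM) and the 24 h vehicle libraries (80.2, 79.3 and 79.7 CPM) lay within or next to the same range, and only the 24 h GNF-7 libraries were lower, at 58.9, 59.3 and 57.5 CPM. The log2 fold change was -0.83 (SE 0.043) in senescence and -0.44 (SE 0.045, edgeR adjusted p 3.51e-13) after 24 h of GNF-7. After 6 h it was -0.029 (95% interval -0.12 to 0.057, edgeR adjusted p 0.645) and turned to 0.024 with a filter at a mean of 5 CPM. Of its relative ACACB, which sits at the mitochondrial outer membrane and makes the malonyl-CoA that restrains fatty acid import, the level was 3.76 ± 0.373 CPM in cycling cells, 8.84 ± 0.799 in senescent vehicle cells at 6 h, 8.1 ± 0.689 in vehicle at 24 h and 14.6 ± 0.224 after 24 h of GNF-7 (SD, n = 3). ACACB rose in senescence (1.23) and with GNF-7 at 6 h (0.37) and 24 h (0.84), while ACACA fell in the first and last of these.

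FASN (ENSG00000169710, chromosome 17, 82078333 to 82098332, minus strand), the synthase itself, had 649, 660 and 671 CPM in cycling cells and 338, 324 and 315 CPM in the senescent 6 h vehicle group. GNF-7 for 6 h gave 278, 275 and 285 CPM. By 24 h the vehicle libraries stood at 292, 295 and 298 CPM and the GNF-7 libraries at 172, 188 and 189 CPM. The groups did not overlap in senescence or with GNF-7 at either time. The log2 fold change was -1.02 (SE 0.036, edgeR adjusted p 2.00e-34) in senescence, -0.22 (SE 0.036, edgeR adjusted p 7.98e-07) after 6 h of GNF-7 and -0.68 (SE 0.037, edgeR adjusted p 7.90e-25) after 24 h.

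OLAH (ENSG00000152463, chromosome 10, 15032227 to 15073852, plus strand), the separate thioesterase, was nearly silent in cycling cells, with 1, 4 and 6 counts (0.0402, 0.138 and 0.196 CPM). Senescent vehicle cells at 6 h had 39, 30 and 21 counts (1.29, 0.947 and 0.728 CPM) and GNF-7 for 6 h gave 82, 94 and 91 counts (2.66, 3.22 and 2.9 CPM). At 24 h vehicle cells had 40, 47 and 40 counts (1.28, 1.66 and 1.55 CPM) and GNF-7 cells 756, 925 and 721 counts (25.2, 30 and 23.9 CPM). The 24 h GNF-7 libraries thus stood above every other library, and the cycling libraries below all of them. The log2 fold change was 2.89 (SE 0.39, edgeR adjusted p 1.36e-09) in senescence, 1.55 (SE 0.20, edgeR adjusted p 2.02e-09) after 6 h of GNF-7 and 4.15 (SE 0.15, edgeR adjusted p 7.57e-33) after 24 h. The senescence value rests on 11 counts in cycling cells. The ratio of scaled counts there was 7.63 (exact conditional binomial 95% interval 4.07 to 15.8, counting error only), and it was 17.8 (14.9 to 21.5) for GNF-7 at 24 h.

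Per kilobase of the principal transcript, OLAH reached 0.0959% ± 0.0595 (SD, n = 3) of the FASN level in cycling cells and 1.54% ± 0.39 in the senescent 6 h vehicle group. It reached 5.36% ± 0.572 after 6 h of GNF-7, 2.59% ± 0.326 in vehicle at 24 h and 73.7% ± 8.54 after 24 h of GNF-7, with libraries from 64.6% to 81.5%. Both genes contribute to the last value, OLAH by its rise and FASN by its fall. The percentages depend on the length used. Per kilobase of all merged exons, OLAH was at 11.2 and FASN at 19.6 CPM after 24 h of GNF-7. Per kilobase of the principal transcript they were at 15.8 and 21.4.

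**Figure D2:**
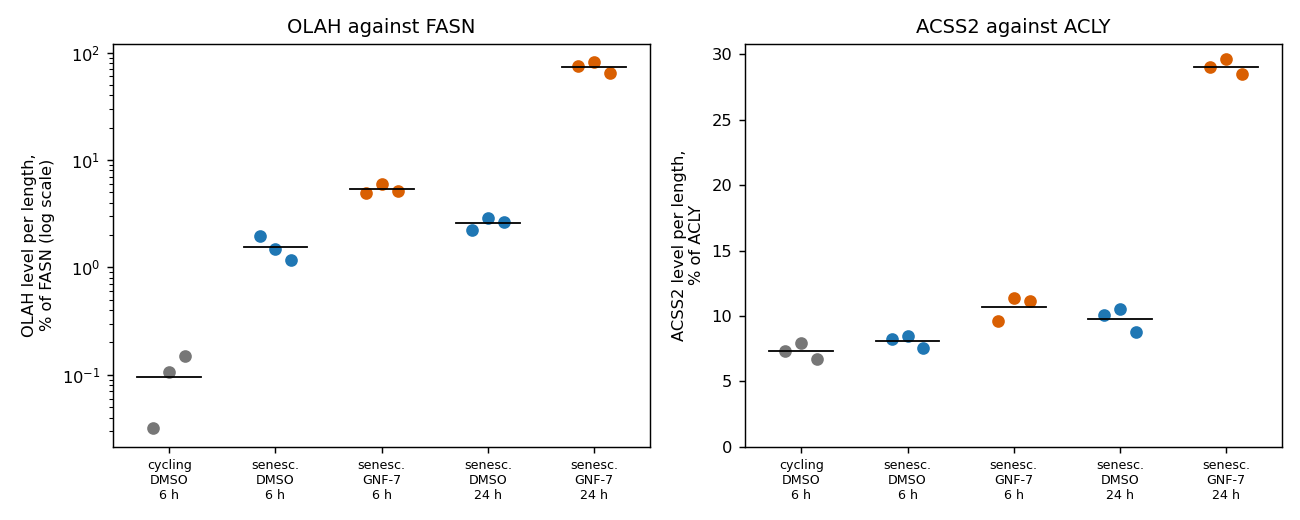
Level of OLAH as a percentage of FASN (left, log axis) and of ACSS2 as a percentage of ACLY (right), both per kilobase of principal transcript, in each library (points) with the mean of 3 (line). The 24 h GNF-7 libraries stand above all others in both panels, with means of 73.7% and 29.1% that depend on the length used.

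ELOVL6 (ENSG00000170522, chromosome 4, 110045846 to 110199199, minus strand), which extends palmitate, had 62.2, 63.4 and 65.8 CPM in cycling cells and 28.2, 28 and 27.2 CPM in the senescent 6 h vehicle group. It was the member with the largest fall after 6 h of GNF-7, to 16.5, 17 and 17.5 CPM (log2 fold change -0.71, SE 0.073, edgeR adjusted p 2.13e-12). At 24 h vehicle cells had 33.5, 30.4 and 31.3 CPM and GNF-7 cells 12.5, 9.81 and 13.6 CPM (-1.41, SE 0.076, edgeR adjusted p 7.18e-25). At both times all GNF-7 libraries lay below all vehicle libraries. ELOVL5 (ENSG00000012660, chromosome 6, 53267398 to 53349179, minus strand), the polyunsaturated-chain elongase, had 188, 208 and 202 CPM in cycling cells and 79.5, 77.7 and 78.2 CPM in the senescent 6 h vehicle group (-1.35, SE 0.046). GNF-7 for 6 h gave 71.4, 62.1 and 68.5 CPM (-0.22, SE 0.048, edgeR adjusted p 1.45e-04). The 24 h vehicle libraries had 70.7, 66.6 and 68.3 CPM and GNF-7 cells 44.2, 42 and 39.5 CPM (-0.71, SE 0.051). The difference between the ELOVL5 and ELOVL6 responses was not tested.

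SCD (ENSG00000099194, chromosome 10, 100347124 to 100364834, plus strand), which makes monounsaturated chains, showed the largest fall in senescence of the 10 genes. It had 639, 671 and 681 CPM in cycling cells and 222, 211 and 214 CPM in the senescent 6 h vehicle group (log2 fold change -1.62, SE 0.038, edgeR adjusted p 6.64e-44). GNF-7 for 6 h gave 240, 222 and 230 CPM, of which the lowest equals the highest vehicle library after rounding, a rise of 0.098 (SE 0.038, edgeR adjusted p 0.0323). That call was lost without a filter (0.078, adjusted p 0.196), without senescent vehicle 6 h replicate 2 (0.081, adjusted p 0.143) or 3 (0.089, adjusted p 0.115), and without GNF-7 6 h replicate 1 (0.067, adjusted p 0.214) or 3 (0.098, adjusted p 0.0739). Vehicle cells at 24 h had 301, 274 and 283 CPM and GNF-7 cells 153, 149 and 154 CPM, without overlap (-0.91, SE 0.038, edgeR adjusted p 3.66e-30).

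FADS1 and FADS2, the desaturases of polyunsaturated chains, lie on opposite strands of chromosome 11, with FADS1 inside the annotated span of FADS2. FADS1 (ENSG00000149485, 61799625 to 61829318, minus strand) and FADS2 (ENSG00000134824, 61792980 to 61867354, plus strand) share 490 exon bases, 4.79% and 4.44% of their exons, and FADS2 shares 49 bases with FEN1 on its own strand. A small part of the counts of FADS1 and FADS2 could therefore be assigned to either gene if strand was not used. Strand cannot separate FADS2 from FEN1 in the bases these 2 share. FADS1 had 238, 255 and 251 CPM in cycling cells and 116, 105 and 110 CPM in the senescent 6 h vehicle group. GNF-7 for 6 h left it at 104, 106 and 105 CPM (-0.069, 95% interval -0.15 to 0.017, edgeR adjusted p 0.224). At 24 h vehicle cells had 141, 131 and 140 CPM and GNF-7 cells 58.4, 56 and 51.2 CPM (-1.31, SE 0.046, edgeR adjusted p 2.91e-34). Its GNF-7 and vehicle libraries overlapped at 6 h and did not at 24 h. FADS2 had 299, 305 and 310 CPM in cycling cells and 108, 102 and 107 CPM in the senescent 6 h vehicle group. With GNF-7 for 6 h it had 94.8, 89 and 91.6 CPM (-0.20, SE 0.041, edgeR adjusted p 3.68e-05). Vehicle cells at 24 h had 135, 126 and 133 CPM and GNF-7 cells 56.4, 57.5 and 57.4 CPM (-1.20, SE 0.042, edgeR adjusted p 2.22e-34).

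**Figure D3:**
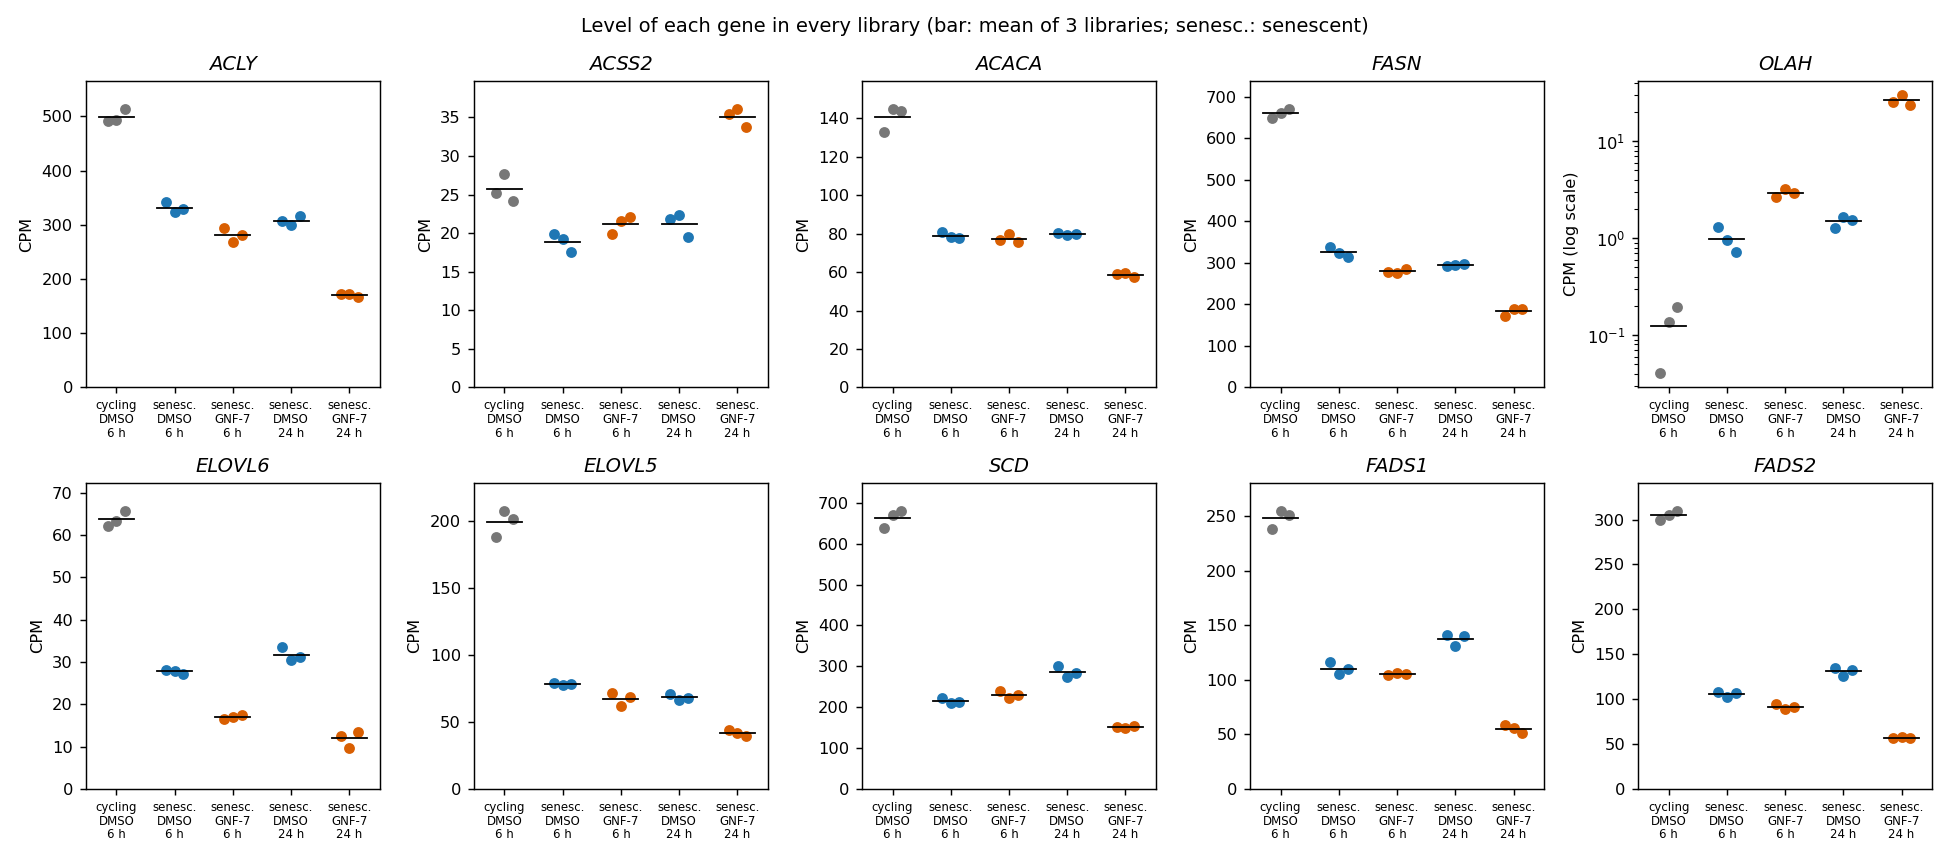
CPM (vertical axis, logarithmic for OLAH and linear from 0 for the others) of each gene in each of the 15 libraries (points) with group means (bars), by group along the horizontal axis. OLAH climbs from at most 0.196 CPM in cycling cells to 23.9 to 30 CPM after 24 h of GNF-7, ACSS2 is highest in the same group, and the other 8 genes are highest in cycling cells and lowest after 24 h of GNF-7.

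The order of the levels, compared between genes per kilobase of principal transcript, changed between the groups. In cycling cells it ran SCD (124 CPM per kilobase), ACLY (115), FADS2 (84), FASN (77.1), ELOVL5 (70.5), FADS1 (54.9), ACACA (14.7), ELOVL6 (9.88), ACSS2 (8.38) and OLAH (0.0744), and no neighbours' ranges overlapped. After 24 h of GNF-7 it ran ACLY (39.3), SCD (28.4), FASN (21.4), OLAH (15.8), FADS2 (15.7), ELOVL5 (14.8), FADS1 (12.2), ACSS2 (11.5), ACACA (6.13) and ELOVL6 (1.85). There OLAH, FADS2 and ELOVL5 overlapped each other, and FADS1 overlapped ACSS2. By this length OLAH moved from the last place to a range shared with the desaturase FADS2. Lengths of all merged exons in place of the principal transcript lowered FADS2 most, from 84 to 27.6 CPM per kilobase in cycling cells. That is below FASN (70.5) and ELOVL5 (52.3) by the same lengths. After 24 h of GNF-7 these lengths gave OLAH 11.2, ELOVL5 11 and FADS2 5.18 CPM per kilobase, and ACSS2 6.52 against 5.4 for FADS1. The order among FADS1, FADS2, ELOVL5 and ACSS2 after 24 h of GNF-7 thus depends on the length used. So does that of FADS2, FASN and ELOVL5 in cycling cells. By its mean, OLAH came next below FASN after 24 h of GNF-7 by either length.

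All 10 genes responded to GNF-7 differently at 24 h than at 6 h (interaction test), as did 30.8% of all genes, 12.8% upward and 18.0% downward. The log2 fold change was further down at 24 h for 8 genes, most for FADS1 (difference -1.25), SCD (-1.01) and FADS2 (-1.0), and further up for OLAH (2.59) and ACSS2 (0.56). The comparison rests on 4 groups, of which the vehicle groups themselves moved between 6 h and 24 h. In vehicle, SCD (0.41), FADS1 (0.31), FADS2 (0.31) and ELOVL6 (0.19) rose and ELOVL5 (-0.20), FASN (-0.14) and ACLY (-0.11) fell, 4 higher and 3 lower of 10 against 9.26% and 9.29% of all genes. OLAH (0.58, 95% interval 0.14 to 1.03, edgeR adjusted p 0.0642), ACSS2 (0.17, adjusted p 0.118) and ACACA (0.014, adjusted p 0.877) did not pass. For the 3 desaturases, the vehicle group at 24 h was thus higher than that at 6 h, and each GNF-7 group was set against the vehicle group of its own time.

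Scaling bears on the comparison of the vehicle times. With library sizes taken as total counts, 12.5% of the genes called there were higher, in place of 49.9%, the median of all genes moved by -0.11 and the members split 3 higher to 3 lower. ELOVL6 then lost its call (0.08, edgeR adjusted p 0.451), as it did in 7 other alternatives, namely the one without mitochondrial genes (0.18, adjusted p 0.0509), the one without a filter (0.18, adjusted p 0.0835) and those without senescent vehicle 6 h replicate 1 (0.20), 2 (0.20) or 3 (0.18) or 24 h replicate 1 (0.15) or 3 (0.20). ACLY lost its call without vehicle 6 h replicate 1 (-0.082) or 3 (-0.11) or vehicle 24 h replicate 1 (-0.11) or 2 (-0.088). OLAH passed with a filter at a mean of 5 CPM (0.59, adjusted p 0.0456), with DESeq2 (0.58, adjusted p 0.0497) and without vehicle 6 h replicate 1 (0.82, adjusted p 0.0232). The calls of SCD, FADS1, FADS2, FASN and ELOVL5 were made in every alternative run. With total counts the median of all genes also moved by 0.13 in senescence, where all 10 calls kept their direction.

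INSIG1, the sterol-responsive anchor, stood at 95.4 ± 2.23 CPM (SD, n = 3) among cycling libraries, 25.9 ± 2.38 in the senescent 6 h vehicle group, 42.6 ± 1.86 with GNF-7 for 6 h, 41.4 ± 3.25 in vehicle at 24 h and 16.1 ± 1.05 with GNF-7 for 24 h. It fell in senescence (log2 fold change -1.89), rose after 6 h of GNF-7 (0.72) and fell after 24 h (-1.36). SREBF2, the regulator of sterol genes, was at 285 ± 7.13, 178 ± 10.8, 172 ± 7.78, 209 ± 1.28 and 110 ± 7 CPM in the same order. It fell in senescence (-0.68) and after 24 h of GNF-7 (-0.92), and was at -0.048 after 6 h (edgeR adjusted p 0.386). SREBF1, the regulator most tied to fatty acid genes, had smaller changes of -0.21, 0.12 and -0.34 in these comparisons, each of which passed the test. Of 20 regulators tested, 12 were lower and 5 higher in senescence, 5 and 6 after 6 h of GNF-7, and 11 and 5 after 24 h. Over all genes the shares called lower and higher were 34.4% and 35.6% in senescence, 21.4% and 17.9% after 6 h and 29.7% and 29.3% after 24 h, and the regulators lower at 6 h and higher at 24 h were near these shares. The same shares apply to the lists that follow.

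Among the suppliers of citrate and NADPH, IDH1, a cytosolic source of NADPH, was at 56.4 ± 0.335 CPM in the senescent 6 h vehicle group and 123 ± 3.07 with GNF-7 for 6 h, and at 61.8 ± 1.81 in vehicle and 299 ± 9.39 with GNF-7 at 24 h (log2 fold changes 1.12 and 2.27, SD, n = 3). It was the only riser of the 10 supply genes tested at either time, and 4 were lower at 6 h and 6 at 24 h. SLC25A1, the citrate carrier that feeds ACLY, fell in all 3 of these comparisons (-0.14 in senescence, -0.13 at 6 h and -0.53 at 24 h), and PC, which replenishes oxaloacetate, fell at 24 h (-1.08). In senescence 6 of the 10 were lower, PGD (-0.71), CS (-0.59) and TKT (-0.53) among them, and 3 higher.

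Of 15 other elongation and desaturation genes tested, 9 were lower and 4 higher in senescence, with HACD2 (-1.36) and TECR (-1.04), which carry out later steps of the elongation cycle, and CYB5B (-1.35), an outer mitochondrial membrane cytochrome, named by the rule. After 6 h of GNF-7, 8 were lower and 1 higher. After 24 h, 10 were lower and 2 higher, with HACD3 (-1.20), the very long chain elongase ELOVL1 (-1.08) and the ceramide desaturase DEGS1 (-1.08) showing the largest changes. Of 9 other synthase and carboxylase genes tested, many of them of the mitochondrial pathway, 5 were lower and 2 higher in senescence, 1 and 3 after 6 h of GNF-7 and 3 and 2 after 24 h, and the counts at 24 h were near the shares over all genes. MLYCD, which degrades malonyl-CoA, rose in senescence (1.19).

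All 20 sterol genes tested were lower in senescence (median -1.23) and 19 of 20 after 24 h of GNF-7 (median -1.03). In vehicle, 15 of 20 were higher at 24 h than at 6 h (median 0.31), against 9.26% of all genes. After 6 h of GNF-7, 4 were lower and 3 higher (median -0.038), near the 21.4% and 17.9% over all genes. The comparisons share vehicle groups, and a difference between sterol and fatty acid genes was not tested.

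**Figure D4:**
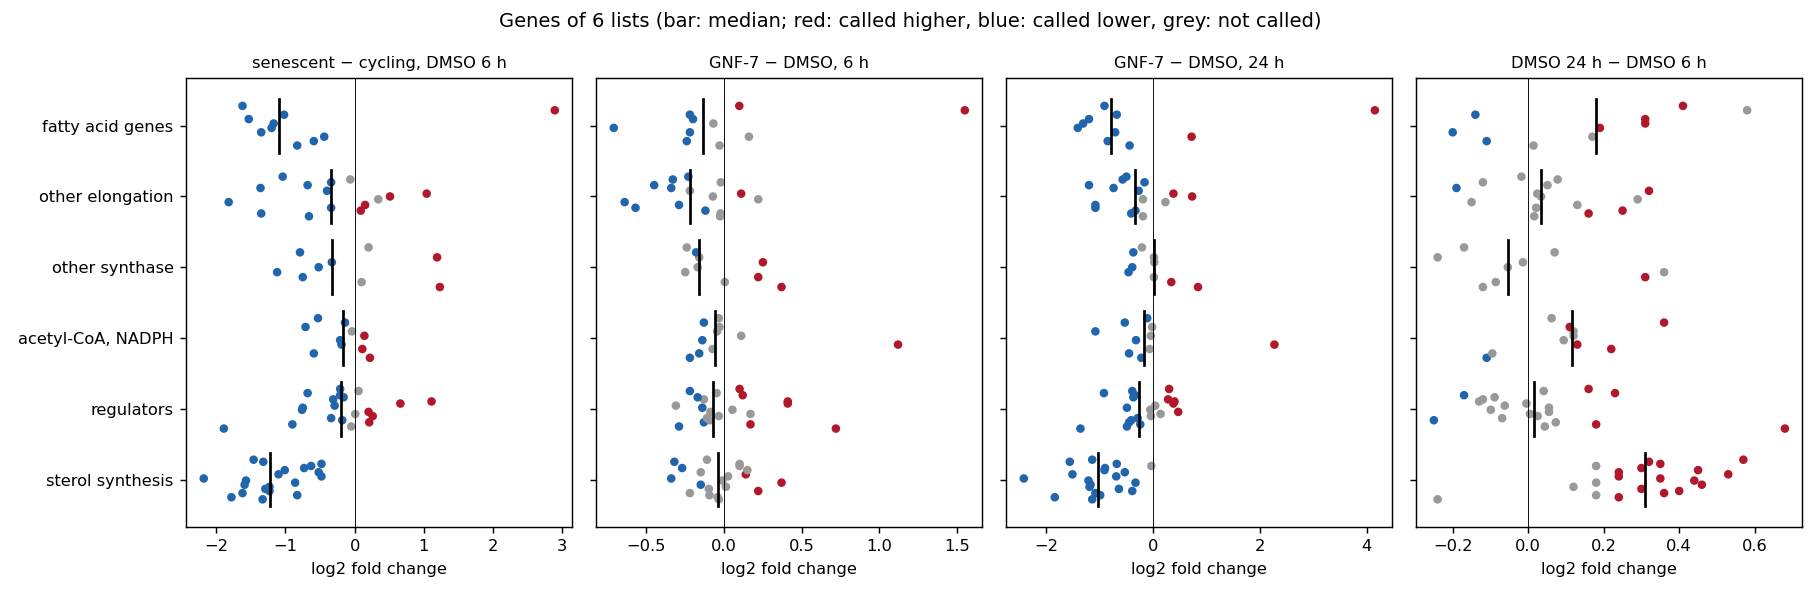
Log2 fold change (horizontal axes, which differ in range between panels) of each gene tested in 6 lists of lipid genes (rows) in 4 comparisons, with the list's median as a bar and colour for the call. The sterol list has 20 of 20 genes lower in senescence and 19 of 20 after 24 h of GNF-7, and the 10 fatty acid genes have 9 and 8 lower. Of all genes, 34.4% and 29.7% were called lower in these comparisons.

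Only tested genes with a symbol and a mean of at least 5 CPM were compared, so closer followers at lower levels were not sought. Among these, Euclidean distance between log2 CPM profiles over the 5 groups, each centred on its mean, gave the genes nearest to a member. For OLAH they were KCP (distance 0.86; 0.876 CPM in cycling cells and 125 after 24 h of GNF-7), ATP6V0D2 (1.15) and NMRAL2P (1.69). KCP overlaps genes on the other strand, ATP6V1F among them, and its counts are uncertain where exons are shared. For FASN they were AKAP1 (0.079), NAA15 (0.082) and GPAT3 (0.084). For SCD they were IDI1 (0.24) and HMGCS1 (0.27) of sterol synthesis and NRM (0.28), and for FADS2 the tubulin TUBA1B (0.14), HMGCS1 (0.14) and IDI1 (0.15). Among the members themselves SCD and FADS2 were close, at 0.32, and OLAH was at 6.81 from FASN. Distances are in log2 units over 5 group means and describe these libraries only.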

How the data were processed

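RNA-seq of 15 HT-1080 libraries (stranded mRNA kit, per the labels' protocols) was deposited by the authors as 1 table of raw read counts per gene. Per the submitters' processing notes, the tools were bcl2fastq 2.20.0.422, STAR 2.7.9a and featureCounts 1.5.1 on GRCh38. The annotation release and strand setting are not given in the sources used here, and without strand overlapping genes cannot be separated. Of 60673 rows, 3 from 1 broken gene entry were left out. Symbols were found for 99.55% of identifiers, and coordinates and lengths came from GENCODE 29, which held 96.3% of them. Counts were fitted with edgeR 4.0.16 (R 4.3.3; filterByExpr, TMM, robust quasi-likelihood, 5 group means, no replicate block), with Benjamini-Hochberg adjustment over 18563 genes. The biological coefficient of variation was 4.64%. CPM values use the same library sizes, and intervals cover counting error only where so named.

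Replicate numbers were checked for pairing and treated as unpaired. No library duplicated another of its own group, and pairs across groups were not checked. The fit was tested on simulated data. Alternatives were other scaling, filters, DESeq2 1.42.0, limma voom 3.58.1, only the groups compared, a replicate block and leaving out each library. The members, lists and tests were chosen with earlier results of these data known. Named genes are all members, at most 3 called genes per list and comparison with the largest change and a mean of at least 5 CPM, the fixed genes SREBF1, SREBF2, INSIG1, SLC25A1 and ACACB, and the 3 nearest profiles to OLAH, FASN, SCD and FADS2. The nearest profiles were taken from genes with a symbol and a mean of at least 5 CPM. MID1IP1, also fixed, was not among the genes tested. Some genes that the rule names are not printed.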

Additional observations from a re-analysis of the deposited data

Results flagged for a closer look

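All 10 genes responded to GNF-7 differently at 24 h than at 6 h in a test of the difference itself (edgeR quasi-likelihood, 4 senescent groups in a fit of all 15 libraries). The difference, as log2 fold change at 24 h minus that at 6 h, was positive for OLAH (2.59, SE 0.28, adjusted p 1.11e-11) and ACSS2 (0.56, SE 0.10, adjusted p 1.10e-05). It was negative for FADS1 (-1.25), SCD (-1.01), FADS2 (-1.0), ELOVL6 (-0.70), ACLY (-0.61), ELOVL5 (-0.49), FASN (-0.46) and ACACA (-0.42), with adjusted p from 8.72e-25 for FADS1 to 2.26e-07 for ACACA. SCD was called higher at 6 h (0.098) and lower at 24 h (-0.91), and the 6 h call was lost in 5 alternatives. Of all genes, 30.8% passed the same test.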

How the results depend on the processing

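Of 810 recomputed member changes, 786 kept their direction and side of the threshold, 17 lost and 5 gained a call, and 2 changed sign. The sign changed for ACACA after 6 h of GNF-7 with a filter at a mean of 5 CPM (0.024 in place of -0.029) and between the vehicle times with total counts (-0.096 in place of 0.014), and neither was called in these fits. The causes were not tested. All member calls in senescence, after 24 h of GNF-7 and in the difference between times were kept in every alternative, 10 of 10 each. Members called ranged from 6 to 8 after 6 h of GNF-7 and from 5 to 8 between the vehicle times. Over the fits without 1 library, the OLAH change ranged from 2.53 to 3.36 in senescence, from 1.38 to 1.79 after 6 h of GNF-7 and from 4.03 to 4.23 after 24 h.

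Correlations of deviations between same-numbered libraries were weak, -0.037 to 0.058 over 30 pairs, and 13 of 30 correlated best with their own number. Nearly all of those 13 were between senescent groups. Between the 24 h vehicle and GNF-7 groups, vehicle replicates 1 and 2 correlated best with their own number (0.058 and 0.028). Vehicle replicate 3 did not (-0.004, against 0.04 with GNF-7 replicate 2). A weak pairing among senescent libraries is thus not excluded. With the replicate block, 13032, 7481, 11031, 5921 and 3711 genes were called in senescence, after 6 h and 24 h of GNF-7, in their difference and between the vehicle times, and 10, 7, 10, 10 and 7 members. Without the block, fewer genes were called in each (12999, 7286, 10940, 5723 and 3443), and the members called were as many. Depth limits OLAH in cycling cells, with 1 to 6 counts a library, and no other member.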

Other observations

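Of 19 beta-oxidation genes tested, 8 rose and 8 fell in senescence, near the 35.6% higher and 34.4% lower over all genes. CPT1A, which admits long chains to mitochondria, rose from 38.8 ± 3 to 87.2 ± 6.89 CPM (SD, n = 3, log2 fold change 1.17, edgeR adjusted p 8.82e-27), and its partner carrier SLC25A20 rose by 1.08, while ACADM, the medium-chain dehydrogenase, fell (-1.06). After 24 h of GNF-7, 4 rose and 9 fell (29.3% and 29.7% over all genes), with ECI1 (1.09) and ECI2 (-0.74), both enoyl-CoA isomerases, in opposite directions.

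Of 16 glycerolipid synthesis genes tested, 10 fell and 4 rose after 24 h of GNF-7, where 29.7% of all genes were lower and 29.3% higher, with LPCAT2 (-1.31) and LPCAT3 (-0.88), which remodel phospholipid chains, and GPAT3 (-0.72) showing the largest changes. Of 13 acyl-CoA synthetases and thioesterases, 7 fell and 1 rose. ACSL4, which activates polyunsaturated chains, fell from 149 to 76 CPM (-0.97) and ACSL3 fell by 0.83. Among 10 uptake and storage genes 4 rose and 4 fell, not far from the same shares. MGLL, the monoacylglycerol lipase, was at 4.31 ± 0.527 CPM in vehicle and 15.4 ± 0.226 with GNF-7 at 24 h (1.84).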
